A study of Mus musculus with 12 samples.

Results

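Duodenum was compared with colon in mice that lack Cftr in the intestinal epithelium, to describe which regional differences in gene expression remain without this chloride and bicarbonate channel. The members are the 3 duodenal and the 3 colonic arrays of mutant mice, chosen by their labels, 6 of the 12 arrays of the study. The other 6 arrays, 3 per tissue from mice with intact Cftr, gave the same regional comparison in wild type. All mice were C57BL/6, aged 3 months (12 weeks), with both Apc alleles intact (Apc+/+) and no treatment is named in the labels. The mutant mice were Cftrfl/fl with a Cre recombinase under the Villin promoter, which is active in intestinal epithelium, so other cells of the gut wall keep the gene. The genotype field names this Cre for the wild-type controls as well, while the growth protocol does not name it there. The colon was sampled as epithelium separated from its distal end, though another field of the labels names the entire colon. The duodenum was sampled as its middle stretch with the villi sheared off, which leaves crypts together with stroma and muscle. Each mouse gave both tissues, but the labels do not tie array numbers to mice.

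The duodenum receives acid, bile and pancreatic juice, secretes bicarbonate and absorbs fat, sugars, amino acids, iron and folate through enterocytes with a dense brush border. Its crypts hold Paneth cells, which release lysozyme and defensins and which the mouse colon normally lacks. The distal colon recovers sodium and water, carries a thick mucus layer made by goblet cells, and releases the hormones PYY and INSL5. GATA factors and PDX1 act in the proximal gut, CDX and posterior HOX factors in the distal gut. CFTR lets chloride and bicarbonate out into the lumen of both regions, is opened through cyclic AMP and through the guanylin receptor, and its loss leaves mucus thick and poorly hydrated.

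Values are deposited log2 signals of bead arrays with nearly the same distribution on every array. They end in a floor near 7.70, and a probe at or below 7.78 was treated as dim, and on each array 19548 to 19597 of the 45281 probes lay above this limit. A log2 difference of a gene near this floor is understated. A gene that was dim on all 3 arrays of a group is given a lower bound of its fold difference, from the mean of the bright group and the limit. Arrays of mutant duodenum and mutant colon differed from each other with an SD over genes of 0.580 to 0.647 on the log2 scale, against 0.154 to 0.194 within mutant colon and 0.205 to 0.224 within mutant duodenum. Some arrays stood apart on marker lists. Colon mutant 2 carried more Paneth cell, erythrocyte and enterocyte signal than the other colonic arrays. Duodenum mutant 1 and 2, with duodenum wild type 2, carried pancreatic acinar signal. These values stand beside the results they touch. In bulk samples fewer cells of a type and less RNA per cell cannot be told apart, and the labels describe the tissues as prepared differently, without settling what the colon samples held.

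The Cftr probe itself read 7.94, 8.21 and 8.19 on the colonic mutant arrays and 8.12, 8.11 and 8.30 on the duodenal ones. These groups overlap, and their difference of 0.07 ± 0.08 (SE, n = 3 per group) did not pass (limma adjusted p = 0.545). In wild type the difference was 0.21 (limma adjusted p = 0.0614). The sources used here do not place the probe relative to the deleted exon, so it does not check the genotype.

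In the mutant mice 6297 of 15996 features (39.4%) differed between duodenum and colon at a limma adjusted p under 0.05, with 2772 higher in duodenum (17.3%) and 3525 lower (22%). In wild type 6594 passed (41.2%), with 2858 higher (17.9%) and 3736 lower (23.4%). A feature is said to have held when it passed in both genotypes with the same sign. This was so for 5342 features, 33.4% of those tested, which are 81.0% of the wild-type calls and 84.8% of the mutant calls. No feature passed in both genotypes with opposite signs (0 to 5 did under the alternatives), and 6525 of the 6594 wild-type calls had the same sign in the mutants. Of the wild-type calls that were higher in duodenum 82.8% held, and of those that were lower 79.7%. No array entered both comparisons, though all 12 shared an estimate of the spread. Centring the arrays on the median of their bright probes moved the median of all features from -0.02 to 0.03 and turned the mutant split to 3779 higher and 2840 lower, so that 57.1% of the calls were higher in place of 44%. Precision is limited by having 3 arrays a group, and nothing ties the p-values to more than the scatter among them. The 3 duodenal and 3 colonic values did not overlap for 48.7% of all features in the mutants and 53.9% in wild type, which is the background for every statement on overlap here.

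The share that held grew with the size of the wild-type difference. Of 2114 wild-type calls of at most 0.25 on the log2 scale 1277 held (60.4%), of 2074 between 0.25 and 0.5 1752 held (84.5%), and of 1393 between 0.5 and 1 1314 held (94.3%). Among 662 calls between 1 and 2, 651 held (98.3%), and among 351 above 2, 348 held (99.1%). Features that passed in wild type alone had small differences, with a median size of 0.20 in wild type and 0.092 in the mutants over 1252 features. Features that passed in the mutants alone were alike in size, with a median of 0.20 in the mutants and 0.098 in wild type over 955 features. Among wild-type calls above 1, the median ratio of the mutant difference to the wild-type difference was 0.920 (n = 1013). With the calls chosen in the mutants instead, the median ratio of wild type to mutant was 1.04 (n = 900). Across the 15996 features, which are not independent replicates, the regional differences of the genotypes correlated with Pearson's r = 0.972 and Spearman's rho = 0.891.

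**Figure D1:**
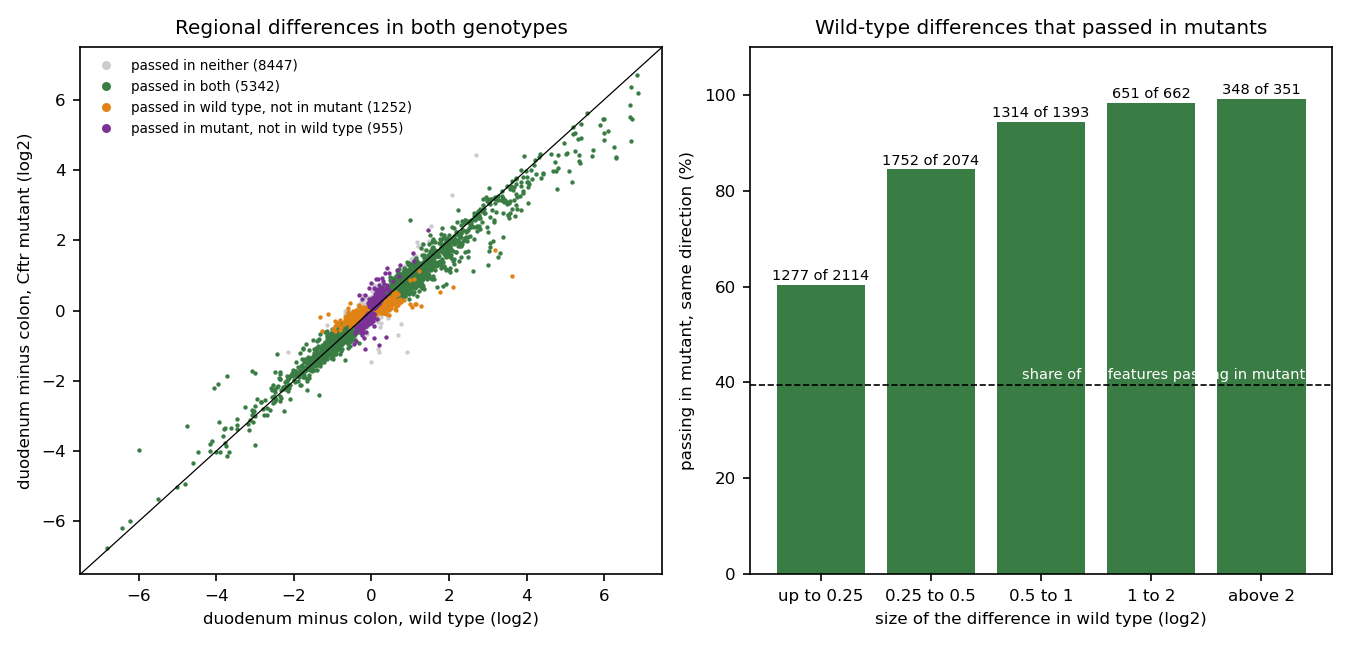
Left, the duodenum minus colon difference of each feature (log2) in wild type against that in Cftr-mutant mice, coloured by the genotypes in which it passed limma at an adjusted p under 0.05; the line marks equal differences. Right, the share of wild-type calls that passed in the mutants with the same sign, by size of the wild-type difference, rising from 60.4% to 99.1%; the dashed line is the 39.4% of all features that passed in the mutants.

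The test of the genotype difference itself, mutant regional difference minus wild-type regional difference, called 0 of 15996 features with limma, and the smallest adjusted p was 0.182. At an unadjusted p under 0.05 it gave 944 features (5.90%). A missing call does not show equality. The 95% interval of this genotype difference had a median width to each side of 0.161. It lay within 0.5 on either side of 0 for 4447 of the 5342 features that held (83.2%), and within 1 for 5148 (96.4%). For the 999 held features with a wild-type difference above 1, it lay within 0.5 for 426 (42.6%) and within 1 for 811 (81.2%). The count of 0 depended on the arrays, since leaving out duodenum wild type 2 gave 36 calls, duodenum mutant 1, 2 or 3 gave 20, 13 or 8, and colon mutant 1 gave 5.

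Among genes above the dim limit on all 6 mutant arrays, Reg1, Sis, Anpep, Rbp2, Lyz1 and Acta2 had the largest differences toward duodenum. Reg1, a secreted lectin-like protein, read 8.09, 8.38 and 8.31 on the colonic mutant arrays and 14.58, 14.69 and 14.56 on the duodenal ones, 6.35 ± 0.07 (SE) higher (limma adjusted p = 2.29e-12). Duodenum mutant 3, the duodenal mutant array with the lowest pancreatic acinar signal, read 14.56. The part of pancreatic tissue in the Reg1 difference was not tested. The wild-type difference of Reg1 was 6.70. Sis, the brush border sucrase-isomaltase, read 8.58, 9.03 and 8.19 in colon and 14.03, 14.33 and 14.29 in duodenum, 5.62 ± 0.20 higher against 5.55 in wild type. Rbp2, which binds retinol in enterocytes, was 5.22 ± 0.10 higher against 5.20. For none of these genes did the tissues overlap, which was a condition for picking them and so is no result.

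Anpep, aminopeptidase N of the brush border, and Lyz1, the Paneth cell lysozyme, were 5.46 ± 0.27 and 5.05 ± 0.59 higher in mutant duodenum. Colon mutant 2 was the highest colonic array for both. It read 9.02 for Anpep, against 7.87 and 7.81, and 11.53 for Lyz1, against 8.49 and 9.05. Without that array the difference of Lyz1 was 5.97, without colon mutant 1 it was 4.45, and in wild type it was 6.01. Acta2, the smooth muscle actin, was 5.04 ± 0.18 higher. Ccl25, a chemokine that draws lymphocytes to the small bowel, was 4.44 ± 0.18 higher at its brightest probe, and 1 of its 3 probes had the opposite sign. Ace, the angiotensin-converting enzyme, was 4.46 ± 0.08 higher, and the galectin Lgals2 4.55 ± 0.31. Ms4a10, Tm4sf5 and Prap1 were 4.91, 4.78 and 4.28 higher. The 3 arrays of each mutant group differed little for Ms4a10 and Tm4sf5, which are among the genes with an SD under 0.1 in both groups, together with the mitochondrial carrier Slc25a45 (4.01 ± 0.05 higher) and Mogat2, an enzyme of triglyceride resynthesis (3.96 ± 0.05 higher). All these genes were higher in wild-type duodenum too, by 3.98 to 6.01.

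Some duodenal genes were dim on every colonic mutant array. Cyp2b10, a drug-metabolizing cytochrome P450, was at least 15.0-fold higher in mutant duodenum, and Lct, the lactase of the brush border, at least 14.2-fold. Tmprss15, the enteropeptidase that activates trypsinogen, was at least 8.71-fold higher, the alcohol dehydrogenase Adh6a at least 8.39-fold, the glucose transporter Slc2a2 at least 8.37-fold and the myosin light chain Myl9 at least 8.07-fold. In all, 554 of the 2772 features higher in mutant duodenum were dim on every colonic mutant array. Conversely, 251 of the 3525 lower features were dim on every duodenal mutant array. Among all 15996 features, 1206 were dim on every colonic mutant array and 1027 on every duodenal mutant array. Probes were kept only if they lay above the dim limit on at least 3 arrays, which bears on all these counts.

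**Figure D2:**
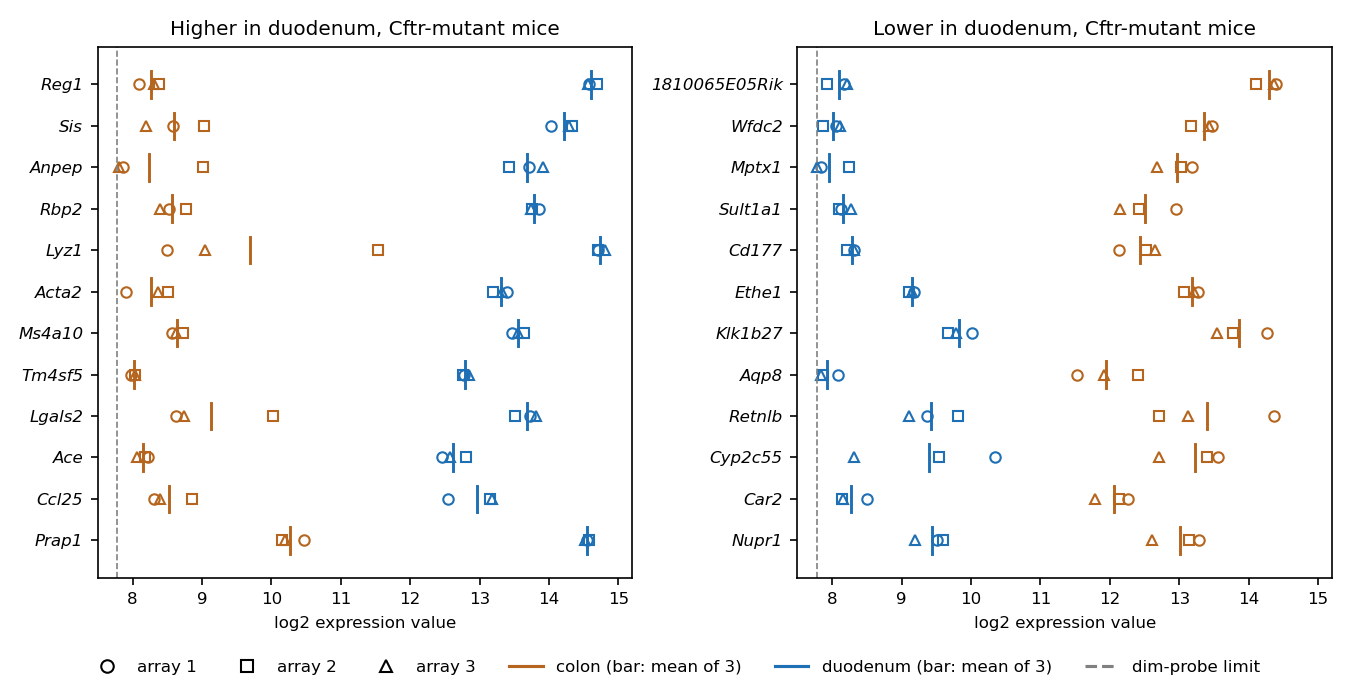
Log2 expression values of the 12 genes with the largest difference in each direction among those above the dim limit on all 6 mutant arrays, on the 3 colonic and 3 duodenal arrays of Cftr-mutant mice; short bars are group means and the dashed line is the dim-probe limit of 7.78. The groups do not overlap for any gene shown, which was a condition of their choice. Colon mutant 2 (squares) lies above the other colonic arrays for Lyz1, Anpep and Lgals2.

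Toward colon, and again among genes above the dim limit on all 6 mutant arrays, 1810065E05Rik, Wfdc2, Mptx1, Sult1a1, Cd177 and Ethe1 had the largest differences. 1810065E05Rik read 14.39, 14.11 and 14.36 on the colonic mutant arrays and 8.16, 7.93 and 8.22 on the duodenal ones, a difference of -6.18 ± 0.10 (SE, limma adjusted p = 1.59e-11). Wfdc2, a secreted antiprotease-like protein, read 13.48, 13.17 and 13.43 in colon and 8.05, 7.86 and 8.11 in duodenum, a difference of -5.35 ± 0.11. Mptx1, a mucosal pentraxin, differed by -5.01 ± 0.23 in the mutants and by -5.01 in wild type. Ethe1 and Tst, enzymes that detoxify hydrogen sulfide in mitochondria, differed by -4.04 ± 0.05 and -3.38 ± 0.05. The sulfotransferase Sult1a1 differed by -4.34 ± 0.18, the neutrophil-associated surface protein Cd177 by -4.15 ± 0.13 and the kallikrein Klk1b27 by -4.03 ± 0.15. In none of these genes did the arrays of the tissues overlap, which was a condition for picking all of them but Tst.

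Retnlb, a goblet cell resistin-like protein, had a higher duodenal level in the mutants than in wild type. It read 14.37, 12.71 and 13.13 on the colonic mutant arrays and 9.37, 9.81 and 9.10 on the duodenal ones, while the wild-type duodenum read 7.80, 7.77 and 7.79. The regional difference of Retnlb was -3.98 ± 0.45 in the mutants and -5.99 in wild type, and it passed in both. The genotype difference was 2.02, with a 95% interval from 0.61 to 3.43, and did not pass (limma adjusted p = 0.598). The cytochrome P450 Cyp2c55 differed by -3.82 ± 0.41, its duodenal mutant arrays spread from 8.31 to 10.34, and without duodenum mutant 1 and 2 the difference was -4.91. Nupr1, a stress-induced nuclear protein, differed by -3.57 ± 0.18.

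Several colonic genes were dim on every duodenal mutant array. Fa2h, which hydroxylates fatty acids of sphingolipids, was at least 13.1-fold lower in mutant duodenum, and Atp12a, the non-gastric proton and potassium pump, at least 9.85-fold. Pyy, the peptide YY hormone, was at least 8.62-fold lower, the sialyltransferase St6galnac6 at least 7.72-fold, Nxpe2 at least 6.76-fold and Insl5, an insulin-like colonic hormone, at least 5.62-fold. Fa2h stood out for its small spread, since its colonic mutant arrays read 11.48, 11.42 and 11.59. Acsm3, a medium-chain acyl-CoA synthetase, and Sult1c2 had a similarly small spread and differed by -2.98 ± 0.10 and -2.79 ± 0.09.

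Most brush border enzymes, lipid assembly genes and nutrient transporters were higher in mutant duodenum. Of 19 measured brush border digestive enzymes 17 were higher in mutant duodenum and 1 lower, against 17.3% and 22% of all features, and all 18 passed in wild type with the same sign. The median difference of these enzymes was 1.97 in the mutants and 2.13 in wild type, beside -0.02 for all features in both. Treh, the trehalase, was 4.23 ± 0.08 higher and Mme, neprilysin, at least 6.91-fold higher. The lower member was Mep1a, a meprin subunit named here after its values were seen, at -1.22 ± 0.06. Of 18 apolipoprotein and chylomicron assembly genes 16 were higher and 1 lower, with a median of 2.63 in the mutants and 2.76 in wild type. Apoa4 read 7.85, 8.16 and 7.74 in mutant colon and 14.73, 14.60 and 14.53 in mutant duodenum. Its difference of 6.70 ± 0.10 rests on a colonic level that was dim on 1 of 3 arrays. Apoc3 was 5.45 ± 0.11 higher and Mttp, which loads lipid onto apolipoprotein B, 3.51 ± 0.07 higher. Colon mutant 2 was the highest colonic array for the mean of both lists. It read 8.81 for the brush border enzymes, against 8.65 and 8.62 on colon mutant 1 and 3. For the lipid assembly genes it read 8.95, against 8.71 and 8.71. The part of this array in the medians was not tested.

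Of 15 sugar, amino acid and peptide transporters 13 were higher in mutant duodenum and 0 lower, and all 13 held. The sodium-glucose transporter Slc5a1 read 9.28, 9.26 and 9.23 in mutant colon and 12.08, 12.50 and 12.59 in mutant duodenum, 3.13 ± 0.15 higher against 2.99 in wild type. The neutral amino acid transporter Slc6a19 was 3.14 ± 0.12 higher, and the amino acid exchanger subunits Slc7a9 and Slc7a8 were 3.17 ± 0.10 and 2.58 ± 0.08 higher. Genes of iron, calcium and vitamin uptake were less uniform, since 7 of 20 were higher, 2 lower and 11 did not pass, beside 17.3% and 22% of all features, and 8 of 11 wild-type calls held. The folate transporter Slc46a1 was 2.58 ± 0.17 higher and Amn, a partner in vitamin B12 uptake, 2.13 ± 0.15 higher, while the zinc transporter Slc39a4 differed by -0.84 ± 0.13. Absorptive enterocyte markers, 17 of 19 of them higher, averaged 8.26, 8.58 and 8.21 on the colonic mutant arrays and 11.65, 11.67 and 11.65 on the duodenal ones. All 19 also belong to the lists counted above, so this count repeats those results. Enterocyte transcripts were thus measured in samples from which villi had been removed.

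Most transcription factors that set regional identity kept their direction. Of 40 measured, 11 were higher in mutant duodenum (27.5%) and 22 lower (55%), beside 17.3% and 22% of all features. Of the 34 that passed in wild type 33 held. Gata4 read 7.82, 7.75 and 7.80 in mutant colon and 8.15, 8.16 and 8.14 in mutant duodenum, 0.36 ± 0.03 higher (limma adjusted p = 1.01e-05). Onecut2, a factor of the proximal gut, was at least 6.09-fold higher, and Creb3l3, a regulator of lipid genes, 2.53 ± 0.07 higher. Pdx1, the duodenal and pancreatic homeobox factor, was at least 1.86-fold higher. Its log2 difference was 0.91 with all arrays and 0.65 with duodenum mutant 3 as the only mutant duodenum, where it did not pass (limma adjusted p = 0.0860). Cdx1 and Cdx2, the caudal factors, differed by -1.26 ± 0.07 and -0.70 ± 0.13 in the mutants and by -1.29 and -0.60 in wild type. The colonic arrays of Cdx2 read 12.38, 12.26 and 12.18 and the duodenal ones 11.85, 11.45 and 11.42. Foxa1, a forkhead factor, differed by -1.81 ± 0.07. Of 17 measured Hox genes 12 were lower in mutant duodenum and 0 higher. In wild type 12 were lower and 1 higher, and the higher one did not pass in the mutants. In the mutants 3 Hox genes had a positive difference, and 7 were dim on every duodenal array. Hoxb7 had the largest difference, with 10.74, 10.46 and 10.63 in mutant colon and 7.90, 7.92 and 8.19 in mutant duodenum, -2.61 ± 0.10 against -2.52 in wild type. Hnf4a, the factor shared by all absorptive epithelium, differed by 0.06 ± 0.11 and did not pass. Hoxb13 was not measured here.

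The promoters of Lct and Sis, which encode lactase and sucrase-isomaltase, are shown with the letters that GATA, HNF1 and CDX factors are known to recognize. The windows are the 250 bases before the gene start, from RefSeq on GRCm38.p6, chr1:128328319-128328568 on the minus strand for Lct and chr3:72967864-72968113 on the minus strand for Sis, written 5′ to 3′. Capitals mark the GATA-factor letters AGATAA, the letters GTTAAT that form part of an HNF1 site, and the CDX letters TTTATG, or the reverse complement of each. No match overlaps another here.
Lct: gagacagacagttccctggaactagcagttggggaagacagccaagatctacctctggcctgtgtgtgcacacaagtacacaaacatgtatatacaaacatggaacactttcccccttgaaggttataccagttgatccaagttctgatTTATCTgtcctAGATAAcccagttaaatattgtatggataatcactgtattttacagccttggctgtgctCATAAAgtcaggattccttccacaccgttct
Sis: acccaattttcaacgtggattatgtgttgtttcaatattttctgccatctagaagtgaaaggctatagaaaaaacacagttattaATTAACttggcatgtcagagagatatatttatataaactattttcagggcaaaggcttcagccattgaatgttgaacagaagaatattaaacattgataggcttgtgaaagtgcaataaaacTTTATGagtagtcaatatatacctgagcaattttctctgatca
In Lct the GATA letters lie 101 and 90 bases before the start, on either strand, and the CDX letters 31 bases before it. In Sis the HNF1 letters lie 165 bases and the CDX letters 43 bases before the start. Such letters are common. A promoter entry was found for 9835 of the 12192 measured genes, for 107 of the 131 genes higher in mutant duodenum by over 2 and for 61 of the 80 genes lower by over 2. AGATAA on either strand is in 10.3% of all 27025 RefSeq promoters of this length and in 6.52% of those of measured genes, in 12.1% of the higher and 9.84% of the lower genes. GTTAAT is in 6.52% of all promoters, 4.22% of those of measured genes, 12.1% of the higher and 8.20% of the lower genes. TTTATG is in 11.1%, 6.72%, 10.3% and 9.84% of these sets in the same order. CAAAGT, part of an HNF4 site, is in 12.5% of all promoters, in 11.1% of those of measured genes, in 24 of the 107 higher genes (22.4%) and in 3 of the 61 lower genes (4.92%). These are matches of letters, counted with no test.

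Ion and bicarbonate handling genes that passed were mostly lower in duodenum, in the mutants as in wild type. Of 19 measured carbonic anhydrases and anion exchange genes 3 were higher in mutant duodenum (15.8%) and 11 lower (57.9%). The shares of all features were 17.3% and 22%. Of 15 wild-type calls in this list 14 held. Car1, a carbonic anhydrase of colonocytes, read 14.60, 14.69 and 14.60 in mutant colon and 7.98, 7.76 and 7.91 in mutant duodenum, where 1 array was dim. Its difference was -6.75 ± 0.07, against -6.81 in wild type. Car2 differed by -3.80 ± 0.13 and Car4 by -1.01 ± 0.22. Slc26a3, the chloride-bicarbonate exchanger of colon, read 10.73, 10.79 and 10.94 in colon and 9.33, 9.49 and 9.30 in duodenum, a difference of -1.44 ± 0.13. Slc26a6, another exchanger of chloride for bicarbonate, ran the other way, with 7.80, 8.01 and 7.79 in colon and 12.20, 11.87 and 11.52 in duodenum, 4.0 ± 0.14 higher against 3.86 in wild type. The basolateral exchanger Slc4a2 differed by -1.23 ± 0.07. Slc12a2, the cotransporter that loads crypt cells with chloride for secretion, differed by -0.86 ± 0.11 in the mutants and -0.74 in wild type.

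Of 27 genes of sodium, potassium and water transport 15 were lower in mutant duodenum (55.6%) and 5 higher (18.5%). The shares of all features were 22% and 17.3%, so the higher share was near that of all features. With a single mutant array left out, 12 to 14 were lower and 5 higher. Scnn1a, the alpha subunit of the epithelial sodium channel, differed by -1.43 ± 0.09. Hsd11b2, which shields the mineralocorticoid receptor from glucocorticoids, differed by -2.62 ± 0.08, and Fxyd3, a regulator of the sodium pump, by -1.86 ± 0.07. The water channel Aqp8 read 11.53, 12.40 and 11.92 in mutant colon and 8.09, 7.87 and 7.84 in mutant duodenum, a difference of -4.02 ± 0.20 against -3.67 in wild type. Its groups did not overlap, which was a condition for the genes of largest difference, of which Aqp8 is one.

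**Figure D3:**
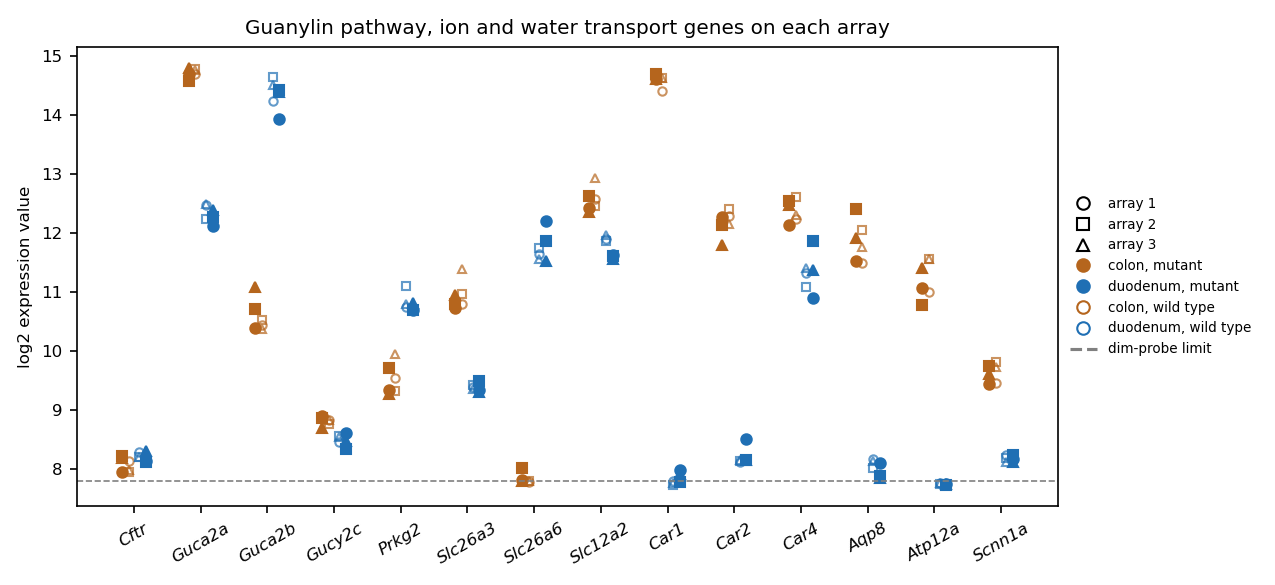
Log2 expression values of guanylin pathway, ion and water transport genes on all 12 arrays, with filled symbols for Cftr-mutant and open symbols for wild-type mice; the dashed line is the dim-probe limit of 7.78. Guca2a and Car1 are high in colon, Guca2b and Slc26a6 in duodenum, in both genotypes, and Cftr reads 7.94 to 8.30 in all mutant samples.

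Guanylin and uroguanylin, the hormones that open CFTR through the receptor guanylate cyclase C, were divided between the regions. Guca2a, guanylin, read 14.69, 14.57 and 14.80 in mutant colon and 12.12, 12.27 and 12.40 in mutant duodenum, a difference of -2.42 ± 0.09 against -2.35 in wild type. Guca2b, uroguanylin, read 10.38, 10.71 and 11.08 in mutant colon and 13.93, 14.42 and 14.39 in mutant duodenum, 3.52 ± 0.18 higher against 4.03 in wild type. The genotype difference of Guca2b, -0.51 with a 95% interval from -1.08 to 0.06, did not pass (limma adjusted p = 0.891). The receptor gene Gucy2c differed by -0.34 ± 0.07, but 1 of its 3 probes had the opposite sign. Prkg2, a cyclic GMP-dependent kinase that phosphorylates CFTR, was 1.30 ± 0.17 higher in mutant duodenum. The hormone genes are neighbours on chromosome 4 (GRCm38.p6). Guca2a lies at chr4:119637732-119639465 on the plus strand and Guca2b at chr4:119656601-119658945 on the minus strand, with 17135 bases and 0 other genes between them. Their promoters are shown because neighbouring genes of opposite regional pattern are set side by side, with capitals as for Lct and Sis, for the windows chr4:119637482-119637731 (plus strand) and chr4:119658946-119659195 (minus strand).
Guca2a: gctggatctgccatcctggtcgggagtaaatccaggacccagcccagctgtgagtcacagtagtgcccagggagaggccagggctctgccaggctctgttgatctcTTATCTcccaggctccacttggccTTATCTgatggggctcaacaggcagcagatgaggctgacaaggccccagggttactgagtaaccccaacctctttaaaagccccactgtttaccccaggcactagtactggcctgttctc
Guca2b: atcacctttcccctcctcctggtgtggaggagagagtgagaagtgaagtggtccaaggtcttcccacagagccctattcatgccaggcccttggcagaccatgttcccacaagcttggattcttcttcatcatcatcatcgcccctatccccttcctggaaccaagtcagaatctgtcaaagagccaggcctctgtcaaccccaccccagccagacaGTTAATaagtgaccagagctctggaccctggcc
The Guca2a window holds the reverse complement of the GATA letters, TTATCT, 144 and 120 bases before the start. The Guca2b window holds the HNF1 letters, GTTAAT, 33 bases before the start and no GATA letters.

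Goblet cell and mucus genes were lower in mutant duodenum. Among 19 genes that mark goblet cells, 15 passed as lower and 1 as higher, with a median of -0.97 in the mutants and -1.13 in wild type. Muc2, the gel-forming mucin, read 14.65, 14.63 and 14.69 in mutant colon and 13.74, 13.54 and 13.56 in mutant duodenum, a difference of -1.05 ± 0.05 against -1.31 in wild type. The genotype difference of Muc2, 0.27 with a 95% interval from 0.11 to 0.42, did not pass (limma adjusted p = 0.475). Bcas1, Foxa3 and Creb3l4, goblet cell genes, differed by -2.12 ± 0.08, -1.79 ± 0.09 and -1.20 ± 0.05. The marker that was higher was Tff3, a trefoil peptide, at 0.49 ± 0.18 (limma adjusted p = 0.0477), and it did not pass when any 1 of colon mutant 1 or 3 or duodenum mutant 1, 2 or 3 was left out. Of 29 genes of mucins and mucin glycosylation 21 were lower and 3 higher, beside 22% and 17.3% of all features. Fut2, which adds fucose to mucin glycans, read 10.43, 10.92 and 11.26 in mutant colon and 7.93, 7.89 and 7.91 in mutant duodenum, a difference of -2.96 ± 0.16. C1galt1, which builds the core of O-glycans, differed by -1.60 ± 0.12.

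Paneth cell markers were higher in mutant duodenum for 10 of 12 and lower for 1, Nupr1, and all 11 held. Their mean level was 9.03, 10.20 and 8.68 on colonic mutant arrays 1, 2 and 3, and 11.36, 11.54 and 11.44 on the duodenal ones. Colon mutant 2 thus carried more Paneth signal than the wild-type colon, which read 8.54 to 9.04, and the part of this array in the medians was not tested. The list's median difference was 2.43 in the mutants and 3.08 in wild type. Without colon mutant 2 and duodenum mutant 2, 9 markers were higher, and without duodenum mutant 1 and 2, 7. The defensin Defa23 was 3.47 ± 0.22 higher in the mutants and 4.78 in wild type. The lectin Itln1 was 3.77 ± 0.39 higher, and Habp2, a plasma protease, at least 1.52-fold higher. Of 28 antimicrobial and innate defence genes 6 were higher in mutant duodenum (21.4%) and 12 lower (42.9%), and all 16 wild-type calls held. The shares of all features were 17.3% and 22%, so the higher share was near that of all features. With a single mutant array left out, 4 to 8 were higher and 11 to 12 lower. Reg3a, an antibacterial lectin, read 7.93, 7.91 and 8.06 in mutant colon and 12.06, 12.17 and 11.59 in mutant duodenum, 3.97 ± 0.13 higher against 5.10 in wild type. Saa1, an acute-phase apolipoprotein, read 13.83, 14.13 and 14.25 in colon and 8.21, 7.68 and 8.35 in duodenum, a difference of -5.99 ± 0.16.

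Of 16 stem cell markers 1 was higher in mutant duodenum, 5 lower and 10 did not pass, beside 17.3% and 22% of all features. Leaving out a single mutant array gave 1 to 2 higher. The higher one was Olfm4, a crypt base glycoprotein, which read 7.73, 8.06 and 7.66 in mutant colon and 10.98, 10.52 and 11.05 in mutant duodenum, 3.03 ± 0.14 higher against 3.50 in wild type. Lgr5, the R-spondin receptor of stem cells, stayed within 7.78 to 7.95 on all mutant arrays and differed by -0.02 ± 0.06, a sign that turned under centring and when single arrays were left out. Ascl2, a stem cell factor, differed by -0.18 ± 0.04, Sox9 by -1.42 ± 0.09 and Prom1 by -0.79 ± 0.09. Of 23 proliferation genes 4 were higher and 2 lower, against 17.3% and 22% of all features, with a median difference of 0.02. Leaving out a single mutant array left 1 to 4 higher and 1 to 2 lower. Top2a was 0.50 ± 0.13 higher, Mcm4 0.31 ± 0.09 higher, and Tyms and Cdk1 differed by -0.55 ± 0.10 and -0.29 ± 0.08. Mcm4 lost its call without colon mutant 3, duodenum mutant 2 or duodenum mutant 3, and Cdk1 without colon mutant 3 or duodenum mutant 2. Cdk1 did not pass in wild type, where it differed by 0.02. Of 20 Wnt pathway genes and targets 6 were higher, 4 lower and 10 did not pass, beside 17.3% and 22% of all features, and leaving out a single mutant array gave 2 to 4 lower. The higher ones included the Wnt antagonists Dkk3, at least 2.10-fold, and Sfrp1, 0.76 ± 0.06, and the target Sp5, 1.16 ± 0.10.

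Of 23 enteroendocrine markers 7 were higher in mutant duodenum (30.4%), 4 lower (17.4%) and 12 did not pass. The shares of all features were 17.3% and 22%. Under centring 11 were higher and 4 lower. Cck, cholecystokinin, read 7.99, 7.88 and 8.05 in mutant colon and 9.42, 9.57 and 9.45 in mutant duodenum, 1.5 ± 0.05 higher. Ghrl, ghrelin, was 1.77 ± 0.06 higher. Pyy read 10.71, 11.04 and 10.91 in mutant colon and 7.77, 7.76 and 7.76 in mutant duodenum, and Insl5 read 10.10, 10.59 and 10.13 against 7.71, 7.68 and 7.70. Of 11 hormone genes measured 4 were higher and 4 lower, and all 8 held. Of 12 tuft cell markers 3 were higher, Plcg2 by 0.91 ± 0.10, Ltc4s by 0.38 ± 0.07 and Il17rb by 0.12 ± 0.04, a call that was lost without colon mutant 2 or 3 or duodenum mutant 2.

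Among cytochrome P450 and conjugation enzymes, 21 of 36 were higher in mutant duodenum and 8 lower, beside 17.3% and 22% of all features. The median of the list was 0.57 in the mutants and 0.75 in wild type. Of the 11 cytochrome P450 genes 9 were higher and 1 lower, and the 9 that passed in wild type held. Cyp4v3, a fatty acid hydroxylase, was 3.14 ± 0.07 higher, against 3.69 in wild type. Glutathione transferases were less uniform, with 5 of 12 higher and 4 lower, and 7 of their 9 wild-type calls held. Gstm1, chosen after its values were seen, read 11.28, 11.46 and 11.50 in mutant colon and 10.46, 10.97 and 10.50 in mutant duodenum, a difference of -0.77 ± 0.17, while in wild type it differed by 0.39 and did not pass. Its genotype difference of -1.15, with a 95% interval from -1.69 to -0.61, did not pass (limma adjusted p = 0.278), and its other probe had the opposite sign in the mutant comparison.

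**Figure D4:**
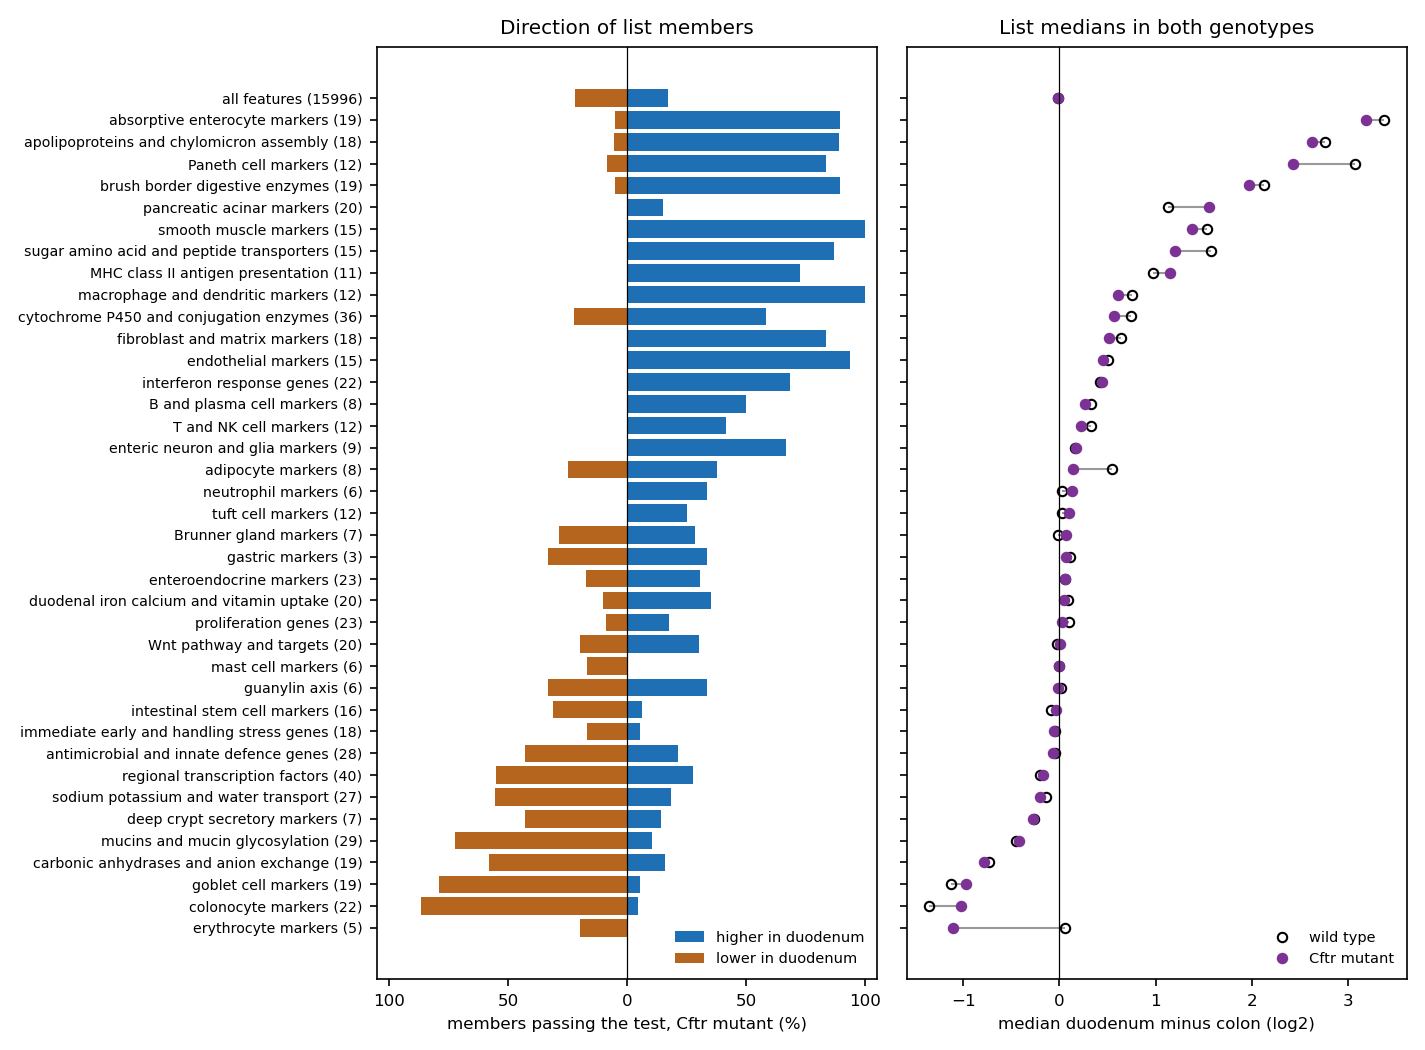
Left, the share of measured members (number in brackets) of each gene list that passed in Cftr-mutant mice, to the right higher and to the left lower in duodenum, with all features at the top. Right, the median duodenum minus colon difference of each list (log2) in mutant (filled) and wild-type (open) mice; the absorptive enterocyte list had medians of 3.19 in the mutants and 3.38 in wild type, and the erythrocyte list -1.11 and 0.06.

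Genes of the gut wall were higher in mutant duodenum. All 15 smooth muscle markers were higher, with mean levels of 8.04, 8.13 and 8.10 in mutant colon and 9.97, 9.87 and 9.97 in mutant duodenum. Des, desmin, was 3.18 ± 0.04 higher and the myosin kinase Mylk 2.48 ± 0.06 higher. Of 18 fibroblast and matrix markers 15 were higher, Fbln1 by 2.80 ± 0.12, and of 15 endothelial markers 14, Plvap by at least 5.15-fold. Of 9 neuron and glia markers 6 were higher, among them the neuropeptide genes Vip, at least 2.5-fold, and Gal, at least 1.49-fold. No member of these lists passed as lower in the mutants, where 17.3% of all features passed as higher and 22% as lower. A negative difference was seen for 1 endothelial and 1 neuron and glia marker. In wild type 1 endothelial marker passed as lower. All 12 macrophage and dendritic markers were higher, C1qb by 1.56 ± 0.11, as were 5 of 12 T and NK cell markers (3 to 7 when a single mutant array was left out, 1 without duodenum mutant 1 and 2) and 4 of 8 B and plasma cell markers, Mzb1 by 1.84 ± 0.12. The part of these cells in the regional differences of other genes was not tested.

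Antigen presentation and interferon genes were higher in mutant duodenum. Of 11 MHC class II genes 8 were higher and 0 lower. Cd74, the invariant chain, read 8.87, 9.21 and 9.32 in mutant colon and 12.42, 13.67 and 12.16 in mutant duodenum, 3.61 ± 0.33 higher against 3.73 in wild type. Duodenum mutant 2 was the highest array for Cd74, H2-Ab1, H2-Eb1 and H2-Aa, which were 3.61, 3.15, 2.63 and 1.95 higher. Without duodenum mutant 1 and 2 the difference of Cd74 was 3.02 and that of H2-Ab1 2.53. Of 22 interferon response genes 15 were higher and 0 lower, and all 14 wild-type calls held. The immunoproteasome subunits Psmb8 and Psmb9 were 1.78 ± 0.12 and 1.34 ± 0.13 higher, the GTPases Igtp and Gbp3 1.27 ± 0.11 and 0.63 ± 0.07 higher. Of 18 immediate early and handling stress genes 1 was higher, Zfp36 by 0.74 ± 0.12, and 3 lower, beside 17.3% and 22% of all features. Leaving out a single mutant array gave 1 to 2 higher and 2 to 5 lower, and centring gave 4 higher.

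Pancreatic acinar markers moved with single arrays. The mean of 20 markers was 9.89, 11.13 and 8.24 on duodenal mutant arrays 1, 2 and 3, and 8.23, 8.14 and 8.08 on the colonic ones. With all arrays 3 of the 20 were higher in mutant duodenum, 9 without duodenum mutant 3 and 1 without duodenum mutant 1 and 2. Rnase1, a pancreatic-type ribonuclease, was 3.20 ± 0.37 higher and read 10.44 on duodenum mutant 3. Leaving out duodenum mutant 1 and 2 leaves 1 duodenal mutant array, so counts from that setting cannot separate pancreatic signal from the loss of arrays. Leaving out any single mutant array gave 5506 to 5855 regional calls in the mutants, against 6297 with all arrays. Without duodenum mutant 3 the count was 5724. Erythrocyte markers averaged 9.63, 11.17 and 10.09 on the colonic mutant arrays and 9.74, 9.52 and 9.31 on the duodenal ones. The alpha-globin gene Hba-a1 differed by -1.46 ± 0.66 in the mutants and did not pass. It differed by -0.74 without colon mutant 2 and by -2.03, which passed, without colon mutant 1 (limma adjusted p = 0.0400). Without colon mutant 2 and duodenum mutant 2, the first being the colonic mutant array highest in Paneth and erythrocyte signal and the other the duodenal mutant array highest in pancreatic and class II signal, 5327 features passed in the mutants and 4687 held.

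**Figure D5:**
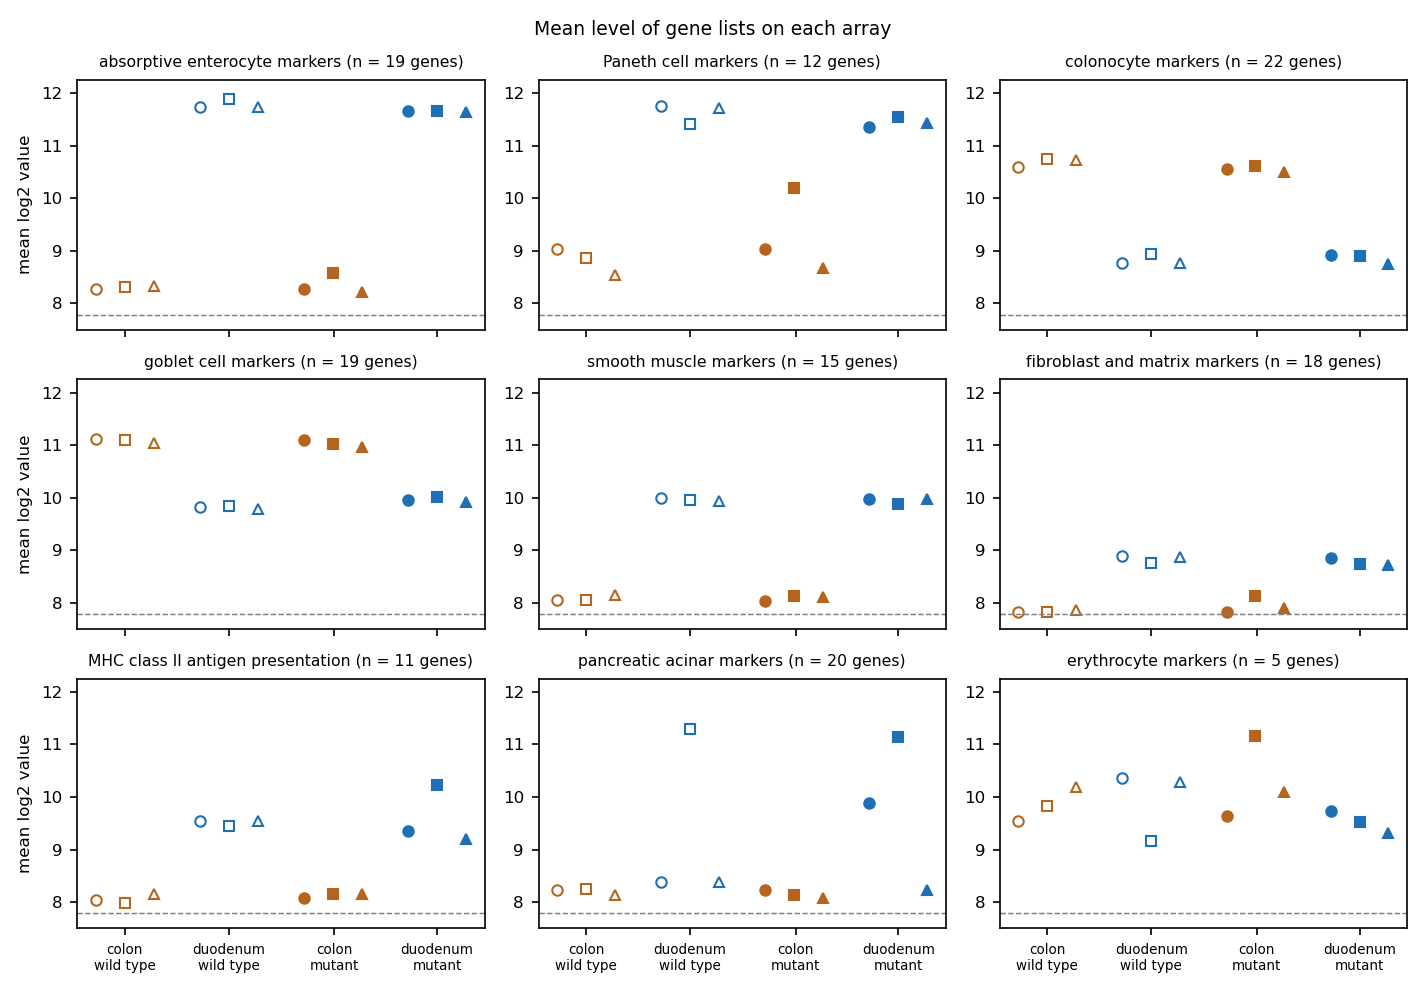
Mean log2 value of 9 gene lists on each of the 12 arrays, open for wild type and filled for Cftr-mutant mice, brown for colon and blue for duodenum; circles, squares and triangles are arrays 1, 2 and 3 of a group and the dashed line is the dim-probe limit of 7.78. The tissues separate for enterocyte, Paneth, colonocyte, goblet, muscle, fibroblast and class II lists. Pancreatic signal is raised on duodenum wild type 2 and duodenum mutant 1 and 2. Among colonic arrays, Paneth, erythrocyte and enterocyte signal is highest on colon mutant 2.

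The 6 named genes with the smallest p of the genotype difference did not pass. Rbp7, a retinol-binding protein, was 1.47 higher in mutant duodenum and 2.13 in wild type, a genotype difference of -0.66 with a 95% interval from -0.86 to -0.46 (limma adjusted p = 0.182). The other 5 had a limma adjusted p = 0.210. The galectin Lgals3 differed by -0.82 in the mutants and -1.36 in wild type, and Reg3a was 3.97 higher in the mutants and 5.10 in wild type. Fermt2, an adaptor of integrins, was 1.20 against 1.49 higher and the integrin Itga9 0.80 against 1.04. Aldh1a7, an aldehyde dehydrogenase, was 0.14 higher in the mutants, which did not pass, and 0.64 higher in wild type. In all 6 the mutant difference was the smaller one.

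Of the 955 features that passed in the mutants alone, 9 differed by more than 1. Reg3g, an antibacterial lectin, read 9.02, 10.09 and 12.02 in mutant colon and 12.84, 11.90 and 13.27 in mutant duodenum, 2.30 ± 0.68 higher. The groups overlap, and the call was lost when any 1 of colon mutant 1 or 2 or duodenum mutant 1 or 3 was left out. Without colon mutant 3 the difference of Reg3g was 3.12 and passed. Anxa4, an annexin, was 1.20 ± 0.28 higher, the sulfate transporter Slc13a1 1.06 ± 0.23 and Nfkbiz, a regulator of NF-kappaB, 1.06 ± 0.21. In the lower direction lipoprotein lipase Lpl differed by -1.10 ± 0.33, Ly6g6c by -0.95, the aminotransferase Kyat1 by -0.87 and Dlk1 by -0.78. For Lpl the call was lost without colon mutant 1, colon mutant 2 or duodenum mutant 2. Slc13a1, Ly6g6c, Kyat1 and Dlk1 lost their calls without duodenum mutant 1 and 2. In wild type these genes had adjusted p-values above 0.05, and none of the 8 genes named here passed the test of the genotype difference.

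Of the 1252 features that passed in wild type alone, 14 differed by more than 1. Rarres2, a chemoattractant protein, was 0.52 ± 0.43 higher in the mutants and 1.77 higher in wild type. Colon mutant 2 read 9.98 against 7.74 and 8.29, and without that array the mutant difference was 1.18 and passed (limma adjusted p = 0.000236). Adipoq, Car3 and Cyp2e1 were 1.29, 1.13 and 1.15 higher in wild-type duodenum and 0.13, 0.17 and 0.18 higher in mutant duodenum. Adipoq and Car3 are fat cell genes. The adipocyte list of 8 genes averaged 8.23, 8.20 and 8.40 on the duodenal mutant arrays against 8.97, 8.45 and 8.87 in wild type. Adipoq and Car3 belong to this list, so its mean partly repeats their values. By region its members were divided in the mutants, with 3 higher in duodenum and 2 lower. The part of fat cells in these differences was not tested. The lower ones were the ectonucleotidase Nt5e, Klf9, the kinase Pim3 and Rnf6, at -0.94, -0.93, -0.90 and -0.85 in wild type and -0.45, -0.58, -0.36 and -0.35 in the mutants, the same sign in each case. In the mutants Klf9 and Rnf6 passed without colon mutant 3, and Nt5e without colon mutant 1 or duodenum mutant 1.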

How the data were processed

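Mouse BeadChip expression was measured on 12 arrays, 3 per tissue and genotype. The values used are the log2 signals deposited by the authors. All 12 columns hold nearly the same distribution, as quantile normalization would leave, but no header records that step. The submitters' processing notes name limma, with no version, and nothing seen here says how background was treated. Of 45281 probes, 22873 that lay above 7.78 (the floor's mode plus 3 SD) on at least 3 arrays were kept. The brightest probe stood for each gene, which left 15996 features, 12192 with a gene symbol and 3804 probes without one. A table of 24 columns that match no labels was not used.

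All 12 arrays entered a limma fit (version 3.58.1, R 4.3.3) with 4 group means. The regional difference in each genotype and the difference between genotypes were tested with Benjamini-Hochberg adjustment at 0.05. With 3 arrays against 3, an exact permutation test cannot go below p = 0.1. The scripts were tested on simulated data. Same-numbered arrays did not deviate together (correlations -0.042 to 0.162), so numbers were not taken as pairs.

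Members, the 38 gene lists and the named genes were chosen with earlier results of these data known, and so support nothing independently. Named genes are the 12 largest measured and 6 largest bounded differences per direction, fixed pathway genes, up to 4 genes per list with the smallest p, the 6 with the smallest p between genotypes, the 4 largest per direction called in a single genotype, and the 4 largest per direction with an SD under 0.1. Alternatives covered the dim limit, probe choice, priors, weights, centring, the floor, thresholds, blocks and left-out arrays. Promoters are RefSeq entries on GRCm38.p6.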

Additional observations from a re-analysis of the deposited data

How the results depend on the processing

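The regional counts were stable under most settings. Leaving out a single array gave 5506 to 6338 calls in the mutants, 5716 to 6735 in wild type and 4812 to 5190 held; fitting each genotype alone gave 5382 and 6662, with 4683 held. Requiring a difference of at least 1 (limma treat) left 482 mutant calls, 577 wild-type calls and 459 held. A fit with the replicate block gave 5914 mutant calls and 5034 held, and no call of the genotype difference. That genotype difference, with 0 calls as reported, gave 1 with an intensity trend and robust prior, 0 to 36 when a single array was left out, 60 without duodenum mutant 1 and 2, and 7 without colon mutant 2 and duodenum mutant 2, a setting chosen after seeing the data. The cause was not tested.

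Of 194 named genes, 171 passed, and 91 of these kept direction and call under every alternative. The direction turned for 8 named genes, whose values follow. The arrays' centring turned Cpa3 to 0.022 and Lgr5 to 0.027. The median probe turned Egf to 0.00043, Gucy2c to 0.18 and Lipe to -0.026. Leaving out colon mutant 2 and duodenum mutant 2 turned Lgr5 to 0.017. Leaving out 1 array gave -0.017 to 0.21 for Adipoq, -0.016 to 0.12 for Cftr, -0.067 to 0.18 for Hnf4a and -0.058 to 0.021 for Lgr5. The dim-probe floor limits low genes, whose differences are understated, and 3 arrays a group limit the rest.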

Other observations

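Further marker lists gave the following counts in the mutants, beside 17.3% higher and 22% lower of all features. Mast cell markers were lower for 1 of 6, the stem cell factor receptor Kit at -1.35, and 5 did not pass. Kit is also on the list of deep crypt secretory markers, so its call is not particular to mast cells. Of the 7 measured genes of that list 3 were lower and 1 higher. With a single mutant array left out, 3 to 4 were lower and 0 to 1 higher. Brunner gland markers, which are duodenal, were divided, with 2 of 7 higher and 2 lower (1 to 2 each when a single mutant array was left out). Neutrophil markers were higher for 2 of 6, among them the gelatinase Mmp9 by 1.34. The adipocyte list had 3 of 8 higher and 2 lower (1 to 2 lower when a single mutant array was left out), the latter including Pparg, a nuclear receptor also present in colonic epithelium, at -1.84. Among 22 colonocyte markers 19 were lower in mutant duodenum, and all 20 wild-type calls held, with a median of -1.03 in the mutants and -1.35 in wild type.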
